A study of Homo sapiens with 28 samples.

Results

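The genes described here are the zinc finger genes of human chromosome 19. They are the protein-coding genes of that chromosome whose symbol is ZNF followed by digits, 240 of the 20033 protein-coding genes of the annotation (GENCODE release 44, hg38). N6-methyladenosine (m6A) on chromatin-associated RNA (caRNA) was read from 14 lists of peaks, 1 for each methylated RNA immunoprecipitation (IP) library. A peak is a stretch of RNA with more IP reads than its local background, and its summit is the base of highest signal. A peak was given to a gene when its summit lay on the strand of the gene, between 1000 bases upstream of the gene start and the gene end. By this rule 213 members had a peak in at least 1 library, 133 had one in all 14 libraries, and 27 had none.

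Most of these genes encode C2H2 zinc finger proteins, in which short finger modules follow each other in an array and together read a stretch of DNA. Many carry a KRAB domain at the start of the protein, which recruits the corepressor TRIM28 (KAP1) and through it the H3K9 methyltransferase SETDB1 and HP1 proteins. KRAB zinc finger proteins are known for silencing retrotransposons, and their genes sit in large tandem clusters on chromosome 19 that arose by repeated duplication. The finger array is usually encoded in a single long last exon. m6A is deposited mainly in the sequence context DRACH, and it is found in long internal exons, in last exons and around stop codons, while exon sequence close to splice junctions carries little of it.

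The libraries came from 3 cell lines. Unmodified (WT) cells were used for HepG2, a hepatoma line (n = 2), and for K562, a chronic myelogenous leukaemia line (n = 2). K562 Control (n = 2) and NB4 Control (n = 3) cells carried a control short hairpin RNA, and K562 RBFOX2 KD (n = 2) and NB4 RBFOX2 KD (n = 3) cells a hairpin against RBFOX2, an RNA-binding protein, delivered in stable lentiviral lines. NB4 is an acute promyelocytic leukaemia line. RNA came from the chromatin fraction and was depleted of ribosomal RNA. Replicates are separate samples of a group, and nothing in the labels says that they came from separate cultures, so p-values measure only the spread between these samples.

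The lists held 22700 to 44088 peaks. HepG2 WT had the shortest lists, with 22700 and 27438 peaks, and K562 WT the longest, with 43403 and 44088. A rough depth for each library, worked out from the folds and p-values of its summits, was 10.8 to 30.9 Mreads (1 Mread is 1000000 reads). In HepG2 WT and in NB4 Control replicate 3 the read counts recovered in this way were mostly not whole, so the depth of these 3 libraries is less certain. Of 5 marker genes chosen for each line, 2 of HepG2 (HNF4A and FGB) had a peak in both HepG2 WT libraries, while ALB and AFP had none in any library. GATA1, KLF1, TAL1 and HBG1 had a peak in every K562 library, and MPO, CEBPE, PRTN3 and AZU1 in every NB4 library. GATA1, a marker of K562, was also listed in 3 of 3 NB4 RBFOX2 KD libraries and in 0 of 3 NB4 Control libraries. RBFOX2 itself had a peak in every K562 and NB4 library, KD included. Peak lists do not give RNA levels, so they do not check the knockdown, and a missing peak can mean less RNA, less m6A or less depth, which cannot be told apart here.

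The sequences below lie under strong coding summits of chosen members. Each window below holds 101 bases of hg38, read 5′ to 3′ on the strand of the gene and centred on the summit of highest rank in the region. Capitals mark every match to DRACH, the m6A context in the standard one-letter base codes. Only regions with their strongest summit in coding sequence were drawn on, so the windows do not show how often summits were coding. All but that of ZNF121 lie in the finger array. The first set belongs to members with a peak in all 14 libraries.

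ZNF121, chr19:9566846-9566946, minus strand: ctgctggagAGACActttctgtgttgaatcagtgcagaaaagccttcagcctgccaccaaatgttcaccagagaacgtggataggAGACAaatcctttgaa
ZNF224, chr19:44107425-44107525, plus strand: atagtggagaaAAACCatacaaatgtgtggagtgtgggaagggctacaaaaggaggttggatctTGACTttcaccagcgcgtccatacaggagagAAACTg
ZNF649, chr19:51890940-51891040, minus strand: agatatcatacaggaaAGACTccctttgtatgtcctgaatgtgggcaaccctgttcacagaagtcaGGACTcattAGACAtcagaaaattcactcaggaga
ZNF274, chr19:58212957-58213057, plus strand: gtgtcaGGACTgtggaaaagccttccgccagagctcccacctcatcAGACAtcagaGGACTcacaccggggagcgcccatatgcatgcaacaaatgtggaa

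ZNF274, which binds the 3′ ends of other zinc finger genes, had the array window with a DRACH adenosine closest to the summit in this set, 2 bases away. In ZNF224 the nearest was 16 bases away, in ZNF649 18 bases and in ZNF121 37 bases. The next pair was chosen because the genes are near copies of each other. In the 101 aligned bases of these windows 100 are identical, and reads from one can be placed in the other.

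ZNF587, chr19:57859678-57859778, plus strand: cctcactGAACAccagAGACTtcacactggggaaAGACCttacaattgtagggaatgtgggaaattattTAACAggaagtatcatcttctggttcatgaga
ZNF417, chr19:57908912-57909012, minus strand: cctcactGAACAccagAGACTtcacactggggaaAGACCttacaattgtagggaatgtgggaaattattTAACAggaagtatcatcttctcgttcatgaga

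The last set belongs to members that differed between cell lines in the comparisons given further on.

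ZNF175, chr19:51587294-51587394, plus strand: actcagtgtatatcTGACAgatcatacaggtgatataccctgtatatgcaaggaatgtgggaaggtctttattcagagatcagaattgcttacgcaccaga
ZNF441, chr19:11781552-11781652, plus strand: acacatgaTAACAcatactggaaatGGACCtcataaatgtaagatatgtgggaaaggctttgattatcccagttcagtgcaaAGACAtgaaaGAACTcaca
ZNF606, chr19:57978936-57979036, minus strand: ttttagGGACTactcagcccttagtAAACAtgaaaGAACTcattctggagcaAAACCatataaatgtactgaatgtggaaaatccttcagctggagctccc
ZNF556, chr19:2877987-2878087, plus strand: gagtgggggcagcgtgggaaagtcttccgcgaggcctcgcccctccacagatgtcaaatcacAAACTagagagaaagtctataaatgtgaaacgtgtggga
ZNF114, chr19:48286775-48286875, plus strand: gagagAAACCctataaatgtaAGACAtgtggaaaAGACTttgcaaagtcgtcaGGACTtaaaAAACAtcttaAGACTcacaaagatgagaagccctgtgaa

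The number of DRACH matches ran from 1 in the windows of ZNF175 and ZNF556 to 6 in that of ZNF114.

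Members carried peaks more often than the other genes of their chromosome. Between 70.0% and 77.1% of the 240 members had a peak in a library (median 73.1%), against 36.0% to 51.6% of the 1236 other protein-coding genes of chromosome 19 and 37.1% to 48.9% of all protein-coding genes. The members were also longer than these neighbours, with a median gene length of 25452 bases against 13985. Their canonical transcripts had a median of 3968.5 exon bases against 2044.5. Over all protein-coding genes these medians were 27471 and 2885 bases. The part of gene length in the shares with a peak was not tested. Over the 6 groups the members' share was higher by 28.2 percentage points (SD 3.2, n = 6 groups), with the difference between 24.8 and 34.8 points in every one of the 14 libraries. The exact sign-flip permutation test over the 6 group means gave p = 0.0312, the smallest it can give, and an adjusted p = 0.0417 over 8 such tests. The 6 groups come from 3 cell lines and are not independent of each other. With the 3 lines as units the smallest p of an exact sign-flip test is 0.25. The 236 ZNF genes of other chromosomes carried peaks more often still, in 72.0% to 82.2% of genes, and the members were lower by 4.50 points (SD 3.59, n = 6 groups; exact permutation test, adjusted p = 0.0417), in 14 of 14 libraries.

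The strength of a peak was compared by its rank, because the fold and the q-value of a summit follow the depth of the library. The percentile of a peak is the percent of peaks in the same list with a −log10 q-value as low or lower, so that 100 is the strongest peak of a list. The mean percentile of member peaks was 47.6 to 56.1 over the libraries, near the middle of the lists. It did not differ detectably from that of peaks in other chromosome 19 genes, with a difference of 0.75 points that ranged from −4.67 to 3.42 over the groups (exact permutation test, adjusted p = 0.625), and this difference changed sign when all lists were cut to equal length. Peaks in ZNF genes of other chromosomes ranked higher than member peaks by 4.94 points, which left the members lower in 14 of 14 libraries (exact permutation test, adjusted p = 0.0417).

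**Figure D1:**
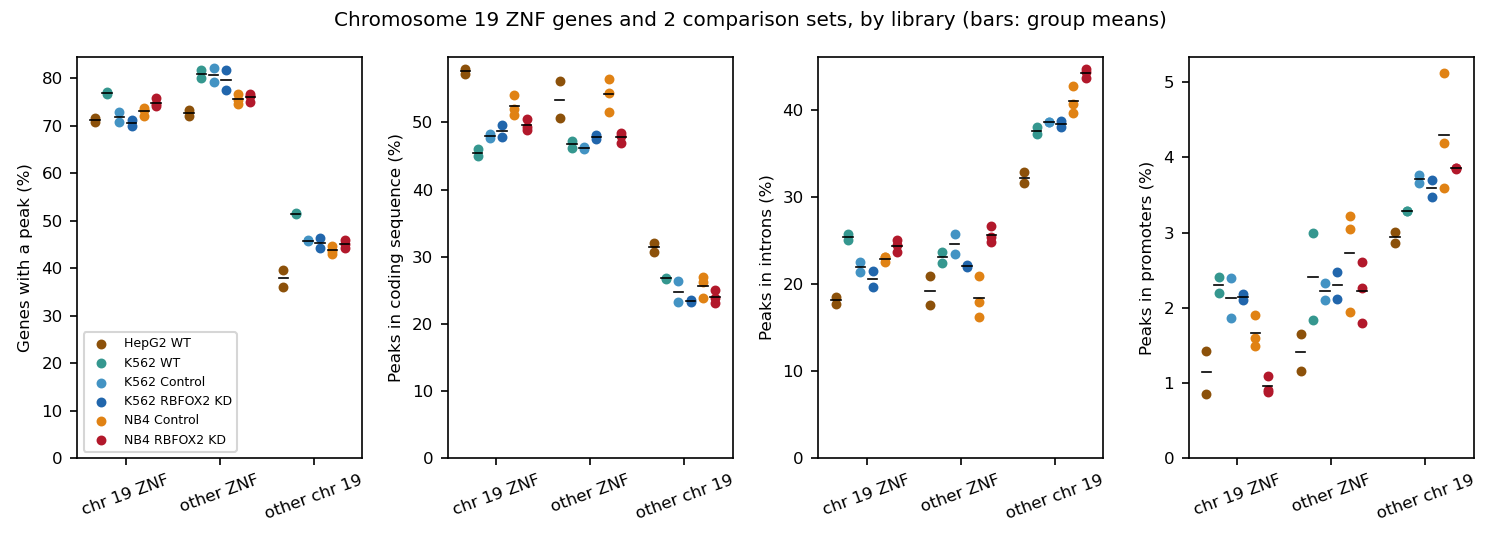
Percent of genes with a peak, and percent of peaks in coding sequence, introns and promoters, for the 240 chromosome 19 ZNF genes, 236 ZNF genes of other chromosomes and 1236 other protein-coding genes of chromosome 19; each point is a library, coloured by group, and bars are group means. The chromosome 19 ZNF genes lie above the other genes of their chromosome in the share with a peak and in coding peaks and below them in intron and promoter peaks in every library, and HepG2 WT has the highest coding shares of the members, 57.3% and 58.0%.

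The peaks of the members lay in coding sequence more often than those of their neighbours. Coding summits made up 45% to 58.0% of member peaks and 23.1% to 32.0% of peaks in the other chromosome 19 genes, a difference of 24.3 points (SD 3.02, n = 6 groups; exact permutation test, adjusted p = 0.0417). Introns held 17.7% to 25.7% of member peaks, against 31.6% to 44.7%, and 3′ untranslated regions (3′ UTRs) held 15.2% to 23.5%. In ZNF genes of other chromosomes coding summits made up 46.0% to 56.5% of peaks and intronic ones 16.2% to 26.6%. The members' coding share differed from theirs by 0.96 points (SD 2.22, n = 6 groups; exact permutation test, adjusted p = 0.393). The high coding share was thus not shown to be particular to the members. The promoter class, from 1000 bases upstream to 100 bases downstream of the start of the canonical transcript, held 0.855% to 2.41% of member peaks and 2.86% to 5.12% of peaks in the neighbours, a difference of −1.89 points (SD 0.737, n = 6 groups; exact permutation test, adjusted p = 0.0417). These shares rest on 3 to 12 promoter peaks a library. A further 0.4% to 1.21% lay upstream of the gene but farther from that start, among them a peak of ZNF577 in 14 libraries. With these counted as promoter peaks, a choice made after seeing the data, the members' share was 2.53% and that of their neighbours 4.21% (difference −1.68 points; exact permutation test, adjusted p = 0.05), while the difference from ZNF genes of other chromosomes turned from −0.49 to 0.18 points. In the promoter class itself 20 members had a peak in some library, led by ZNF446 in 14 libraries and ZNF460 in 13. The promoter of ZNF446 is also the 3′ end of ZNF324, the gene before it on the same strand, so those peaks can belong to either.

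This distribution ran alongside the structure of the genes. The last coding exon had a median of 1526 bases in the members and 159.5 in the other chromosome 19 genes, and 88.8% of members but 8.41% of the others had one of 1000 bases or more. In ZNF genes of other chromosomes the median was 1097.5 bases, and 57.2% had one of 1000 bases or more. In 235 of the 240 members the whole finger array lay in the last coding exon. Of the coding summits, 96.1% to 99.0% fell in the last coding exon, which holds 84.9% of the members' coding bases. The median distance of these summits from the 5′ edge of the coding part of that exon was 537 to 774 bases. The array, 63.1% of the coding bases, held 59.8% to 70.9% of the coding summits. HepG2 WT had 70.6% and 70.9% in the array and K562 WT 61.7% and 59.8%.

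Coding summits were spread along the coding sequence. A small excess lay in the last 250 bases before the stop codon, and a similar one from 1250 to 1500 bases upstream of it. The last 250 bases held 14.4% to 18.2% of the summits, 16.6% on average, beside 13.8% of the coding bases. From 750 to 1500 bases upstream of the stop codon, the shares per 250 bases averaged 14.8%, 12.2% and 14.6%, beside 13.5%, 13.1% and 11.6% of the coding bases. The median summit lay 830 to 953 coding bases upstream of the stop codon.

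**Figure D2:**
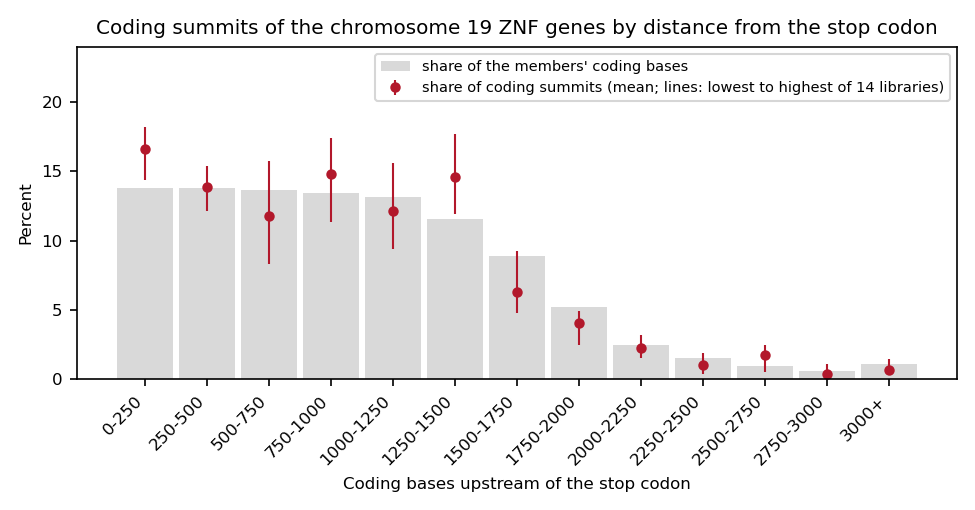
Share of coding summits of the chromosome 19 ZNF genes by distance from the stop codon in coding bases (points, mean of 14 libraries; lines, lowest to highest library), over the share of the members' coding bases at that distance (grey bars). The points run along the coding sequence near the bars. They lie above them next to the stop codon, with 16.6% of summits in the last 250 bases, which hold 13.8% of the coding bases. They also lie above them from 1250 to 1500 bases, with 14.6% of summits beside 11.6% of the coding bases.

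Each finger is joined to the next by a conserved linker whose codons hold AAACC, itself a match to DRACH, so the array repeats a possible m6A context at regular spacing. AAACC was no more common at summits than elsewhere in the array. Of 155 array windows of 101 bases centred on region summits, 52.9% held it, beside 55.5% of 2611 windows that tile the arrays of all members. GGACT, the DRACH form most often methylated, was in 10.3% of summit windows and 5.44% of tiled windows, and GAACT in 18.7% and 9.96%. Any DRACH was in 94.8% and 88.9%. In coding sequence outside the array GGACT differed less, at 8.79% of 91 summit windows and 8.49% of 919 tiled windows. TGCATG, the motif RBFOX2 is known to bind in splicing, was in 5.81% of array summit windows and 4.60% of tiled ones. AGATG is the DNA form of AGAUG, the motif the study found most often where RBFOX2 bound methylated caRNA. It was in 10.3% of array summit windows and 6.47% of tiled ones, and outside the array in 17.6% and 17.7%. Motifs were searched on the strand of the gene alone. The first 3 named are all forms of DRACH and so overlap with it, and the shares describe windows that share sequence by descent.

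Overlapping peaks of the 14 libraries merged into 670 pairs of a member and a region, 651 distinct regions, of which 157 were present in all 14 libraries. By their strongest summit, 69 of the 164 pairs found in all libraries lay in the finger array, 35 in coding sequence outside it, 34 in the 3′ UTR and 15 in an intron. Of all 670 pairs, 221 were intronic, so introns made up a larger part of the regions seen in some libraries than of those seen in all. Regions seen in a single library numbered 85. A member with a peak in every library had a median of 3 regions and a maximum of 17.

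The 12 members that ranked highest over the groups had mean percentiles of 93.7 to 99.0. ZNF121 led, with a lowest percentile of 97.6, a median of 99.2 and a highest of 99.7 over the 14 libraries, at a region of its last exon (chr19:9565750-9567257) whose summit lay in coding sequence ahead of the array. Its fold over the background was 5.70 and 6.32 in HepG2 WT, 18.5 to 29.4 in the K562 libraries and 5.56 to 7.99 in the NB4 libraries. Its rank was at least 97.6 in all 3 lines, and it was still among the members called higher by rank in K562 WT than in HepG2 WT, in the comparison given further on. ZNF224, a KRAB repressor with 18 fingers, ranged from 89.8 to 99.6 (median 98.8) with its summit in the array (chr19:44106439-44108236). ZNF324 ranged from 95.0 to 99.3 (median 97.9).

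ZNF587 and ZNF417 ranged from 94.8 to 99.3 and from 95.2 to 99.0. They are the near copies shown above, and 66 words of 50 bases around the summit of each occur elsewhere in the genome, so their ranks cannot be counted as 2 separate results. ZNF577 and ZNF649 owe their high rank to the same peak (chr19:51890589-51891992), which lies in the array of ZNF649 and in the 1000 bases upstream of ZNF577, and ranged from 92.3 to 99.7. ZNF432 and ZNF841 also share their leading region (chr19:52065004-52067704), coding in ZNF841 and intronic in the long annotated span of ZNF432. ZNF274 ranged from 93.1 to 99.1, ZNF266 from 83.4 to 98.1 and ZNF586 from 80.7 to 98.7.

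ZNF586 and ZNF83 were also among the members with most regions, 15 and 17, followed by ZNF730 with 11. In these 3 genes most regions were intronic: in ZNF83 a region in the 5′ UTR and an intron region were present in all 14 libraries, and in ZNF586 the strongest intronic region (chr19:57786049-57787182) was. The members without a peak were not short genes. The longest were ZNF536, a brain-enriched zinc finger gene (488696 bases), ZNF568 (88722), ZNF578 (63330), ZNF540 (62774) and ZNF345 (62669). The median gene length was 30736 bases in members without a peak and 24176 in members with a peak in all libraries, their median coding lengths were 1833 and 1788 bases, and the median number of fingers was 13 in both. A peak in all libraries was found for 54.7% of the 190 members with the core of a KRAB A box and for 58.0% of the 50 without it.

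Along the chromosome the members fell into 16 clusters, counting a gap of more than 1000000 bases as a break. In the cluster of 39 genes from 51.6 to 53.6 Mb, 37 had a peak in some library and 29 in all 14. In the largest cluster, 57 genes from 55.5 to 58.5 Mb, 34 had a peak in all. In the pericentromeric cluster of 37 genes from 19.7 to 24.1 Mb, 15 did, and this was the cluster with the widest spread between groups among those of 15 or more genes, though narrowly so: 48.6% of its genes had a peak in HepG2 WT on average, 64.9% to 66.2% in the K562 groups, 67.6% in NB4 Control and 73.9% in NB4 RBFOX2 KD. The cluster from 43.5 to 45.1 Mb ran from 56.9% in NB4 Control to 81.25% in K562 WT. That from 7.07 to 9.79 Mb ran from 70% in HepG2 WT to 93.3% in K562 WT. HepG2 WT had the shortest lists, and the part of list length in these shares was not tested. Of 24 genes from 36.2 to 37.8 Mb, 6 had no peak in any library, among them ZNF568, ZNF540 and ZNF345.

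**Figure D3:**
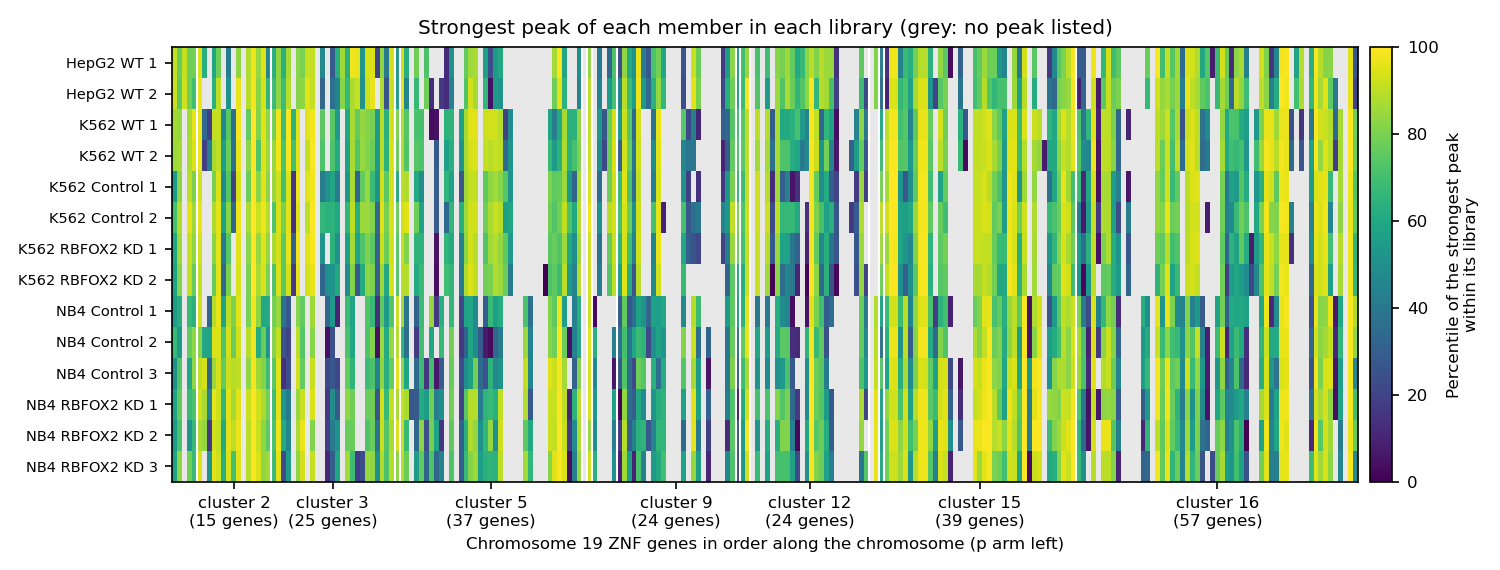
Percentile of the strongest peak of each of the 240 members (columns, in order along chromosome 19) in each of the 14 libraries (rows); grey means that no peak was listed, white lines separate the 16 position clusters, and clusters of 15 or more genes are named. Of the columns, 133 are filled in all 14 rows and 27 are grey in all of them.

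Differences between cell lines were compared in 3 ways: by readouts over all members, by peaks listed in every library of one group and in none of the other, and by rank. For the rank, the percentile of the strongest peak of a gene was turned into a normal score, in which 1 unit is 1 SD of a normal distribution, and fitted with limma over all protein-coding genes with a peak in every library of the contrast. A gene was called at a Benjamini-Hochberg adjusted p under 0.05. Pairs of groups of 2 libraries cannot reach an exact p below 0.333, and 3 against 2 or 3 cannot go below 0.1, so none of the readouts below could pass 0.05 within a contrast.

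K562 WT and HepG2 WT did not overlap in the share of coding peaks. Coding summits were 57.3% and 58.0% of member peaks in HepG2 WT and 46.0% and 45% in K562 WT, a difference of −12.1 points without overlap (exact permutation test, adjusted p = 0.333, the smallest possible). Over all protein-coding genes the coding share fell too, from 35.3% and 34.2% to 27.2% and 27.4%, a difference of −7.43 points, and in ZNF genes of other chromosomes it was 56.1% and 50.6% against 47.3% and 46.3%. Members with a peak were 70.8% and 71.7% in HepG2 WT and 77.1% and 76.7% in K562 WT. That difference of 5.62 points turned to −6.67 points when every list was cut to its 22700 strongest peaks, so its direction went with the length of the lists.

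A peak in both K562 WT libraries and in no HepG2 WT library was found for 23 of 202 members, 11.4%, where 22.2% of all protein-coding genes tested were called. The reverse held for 11 members, 5.45%, beside 8.11% of genes. With lists of equal length the counts turned round, to 10 in K562 WT alone and 22 in HepG2 WT alone. Leading the first set, ZNF320 was at percentiles 94.3 and 95.6 in K562 WT and was listed in all other K562 and NB4 libraries too. ZNF584 stood at 87.0 and 86.3, and ZNF665 at 89.7 and 83.6. The pericentromeric cluster, singled out after its values were seen, gave 8 of its 27 members tested (29.6%) to the K562 WT set, ZNF208, ZNF257, ZNF430, ZNF486, ZNF681, ZNF726, ZNF730 and ZNF93, against 1 of that cluster (ZNF682) in the reverse. ZNF93 is known for silencing LINE-1 elements. In the reverse set, ZNF556 was at 91.3 and 92.6 in HepG2 WT and was listed in no other library, from 1 region in its array (chr19:2877180-2878380). ZNF625, at 85.7 and 81.7, was likewise listed in HepG2 alone, in a span it shares with a readthrough gene model, and ZNF439 was at 80.0 and 82.9. Over all libraries, 59.0% of ZNF320 peaks had a word of 50 bases near the summit that occurs elsewhere. This share was 50% in ZNF625, 47.6% in ZNF439, 11.8% in ZNF665 and 0% in ZNF584 and ZNF556.

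By rank, 47 of 154 members (30.5%) were higher in K562 WT than in HepG2 WT and 17 (11%) lower, beside 29.0% and 7.71% of the 6263 genes fitted. The median gene of the whole fit was higher in K562 WT by 0.39, and the median member by 0.24. Without either K562 WT replicate no member was called, and without HepG2 WT replicate 1 or 2 there were 75 and 88. ZNF429 was at 23.5 and 4.3 in HepG2 WT and 93.0 and 89.2 in K562 WT (difference 2.58, SE 0.352, limma adjusted p = 0.00888). Its lowest percentile over all libraries, 2.575, lay outside both groups. Over all libraries 30.4% of its peaks had a word of 50 bases near the summit that occurs elsewhere. ZNF175 was at 14.2 and 9.74 in HepG2 WT and 89.6 and 91.5 in K562 WT (2.5, SE 0.163, limma adjusted p = 0.00538). In ZNF175 the groups were far apart and the window shown above lay in the array. ZNF552 also rose in rank, from 15.1 and 43.0 to 96.3 and 96.7 (2.42, limma adjusted p = 0.00786), but every word of 50 bases around its summit occurs elsewhere, so its reads cannot be told from those of a copy. In the other direction, ZNF606 was at 88.6 and 87.8 in HepG2 WT and 16.3 and 26.4 in K562 WT (−1.99, SE 0.180, limma adjusted p = 0.00558), and was listed in no other library. ZNF875 stood at 91.6 and 95.9 against 42.8 and 39.8 (−1.78, limma adjusted p = 0.00638), and ZNF91 at 98.9 and 95.9 against 61 and 64.8 (−1.68, limma adjusted p = 0.00861). ZNF91, with 31 fingers, is known for silencing SVA elements. In HepG2 WT and K562 its strongest region (chr19:23358360-23362838) ran from the array into the 3′ UTR, while in NB4 intronic regions ranked higher.

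NB4 Control and K562 Control differed in the mean percentile of member peaks, which was 47.6, 48.5 and 49.9 in NB4 Control and 52.0 and 56.1 in K562 Control, without overlap (difference −5.36; exact permutation test, p = 0.1, adjusted p = 0.2). The coding share was 54.1%, 52.0% and 51.1% against 47.7% and 48.2% (difference 4.46 points; exact permutation test, adjusted p = 0.2). With lists of equal length the coding difference fell to 0.302 points. Over all protein-coding genes the same differences were −0.92 for the percentile and 2.93 points for the coding share. Members with a peak in every NB4 Control library and in no K562 Control library numbered 18 of 201, 8.96%, beside 8.93% of genes. The reverse numbered 17, 8.46%, beside 11.8% of genes. Both shares were near or below those of all genes.

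Among the members listed in NB4 Control alone of this pair, ZNF665 was at 93.7, 95.3 and 99.4, from an intronic region (chr19:53191957-53192723). It was also listed in both K562 WT libraries, but in none of the 4 K562 libraries with a hairpin. ZNF114, one of the sequences shown above, was at 88.6, 89.8 and 91.2 in NB4 Control and at 81.2 and 81.1 in HepG2 WT, and was listed in no K562 library. ZNF98 was at 71.7, 85.1 and 91.2, with 8 of its 10 regions intronic, and was listed in NB4 alone. In K562 Control alone of the pair, ZNF69 was at 94.9 and 90.1, from an intronic region where 79 words of 50 bases occur elsewhere. ZNF30 was at 78.2 and 89.1 and ZNF442 at 75.6 and 85.4. Peaks with such a word near the summit made up 53.5% of those of ZNF98 and 42.9% of those of ZNF442 over all libraries. In ZNF114 they made up 7.14% and in ZNF30 0%. Of the 17, which were 9 with lists of equal length, 5 lay in the 19p13.2 cluster from 11.5 to 12.6 Mb (21.7% of its 23 members tested, a cluster also singled out after its values were seen), namely ZNF69, ZNF433, ZNF442, ZNF491 and ZNF563.

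By rank, 11 of 145 members (7.59%) were higher in NB4 Control and 37 (25.5%) lower, beside 10.9% and 18.0% of the 6304 genes fitted. The median gene was lower in NB4 Control by 0.17 and the median member by 0.26. Without K562 Control replicate 1 or 2 the 48 calls became 16 and 7. ZNF441 was at 94.2 and 95.4 in K562 Control and at 27.7, 20.7 and 23.6 in NB4 Control (difference −2.34, SE 0.205, limma adjusted p = 0.00053). ZNF850 was at 94.5 and 95.9 against 55.9, 57.7 and 36.3 (−1.67, limma adjusted p = 0.00274), and ZNF493 at 75.1 and 78.1 against 29.8, 7.41 and 25.2 (−1.61, limma adjusted p = 0.00642). In all 3 the groups lay apart without overlap. Higher in NB4 Control, ZNF579 was at 42.1, 71.2 and 71.8 against 11.9 and 7.04 (1.64, limma adjusted p = 0.00534), ZNF177 at 80.2, 77.4 and 89.1 against 20.4 and 33.6 (1.57, limma adjusted p = 0.00343) and ZNF350 at 89.8, 90.8 and 86.9 against 27.3 and 55.9 (1.47, limma adjusted p = 0.00583). The coding peak of ZNF177 lies also in the readthrough gene ZNF559-ZNF177.

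**Figure D4:**
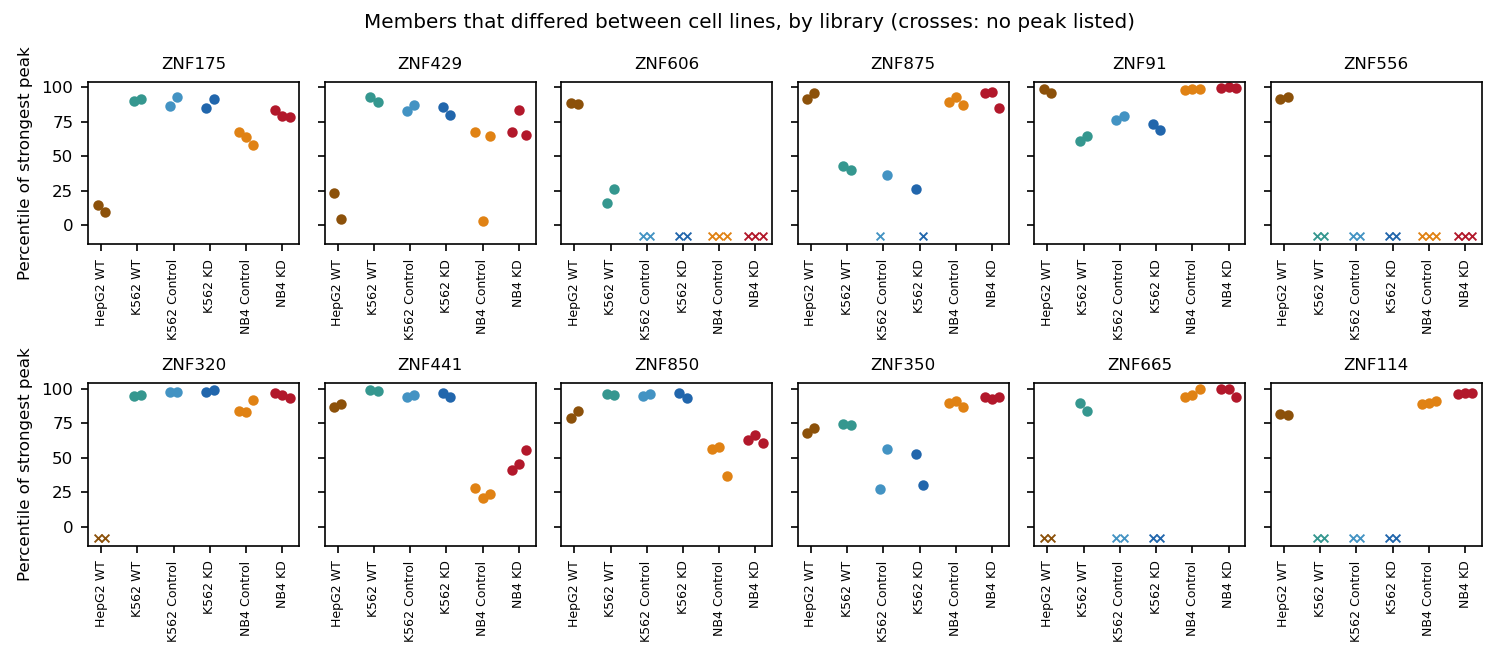
Percentile of the strongest peak of 12 members in every library, by group; crosses below the axis mark libraries with no peak listed. ZNF175 and ZNF429 are low in HepG2 WT, ZNF606 and ZNF556 are high in HepG2 WT, ZNF441 and ZNF850 are lowest in the NB4 groups, and ZNF665 is listed in K562 WT and NB4 but in none of the K562 Control or K562 RBFOX2 KD libraries. The lowest value of ZNF429, 2.575, lies outside HepG2 WT.

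K562 Control and K562 WT are the same line with and without a hairpin. Members with a peak were 70.8% and 72.9% in Control and 77.1% and 76.7% in WT, a difference of −5.00 points (exact permutation test, adjusted p = 0.667) that was 0 with lists of equal length and −3.88 points over all protein-coding genes. A peak in both WT and in no Control library was found for 11 of 189 members, 5.82%, beside 7.53% of genes, and the reverse for 1, ZNF878, 0.529% beside 1.97% of genes. With lists of equal length both counts were 3. The 11 were led by ZNF665, ZNF528 (64 and 67.8 in WT) and ZNF223 (54.2 and 41.5). By rank 2 of 166 members (1.20%) were higher in Control and 6 (3.61%) lower, beside 2.80% and 7.85% of the 8107 genes fitted. ZNF208 was at 73.7 and 56.4 in Control and 19.9 and 34.3 in WT (difference 1.02, limma adjusted p = 0.0498), where the highest value came from an intronic region with 89 words of 50 bases that occur elsewhere and the other 3 from 3′ UTR regions, and ZNF235 at 21.0 and 26.8 against 3.55 and 6.96 (0.93, limma adjusted p = 0.0339), also from more than 1 region of the gene. ZNF491 fell from 64.7 and 70.4 in WT to 15.8 and 14.1 in Control (−1.50, SE 0.152, limma adjusted p = 0.0142), ZNF579 from 40.9 and 49.0 to 11.9 and 7.04 (−1.20, limma adjusted p = 0.0213) and ZNF331 from 96.2 and 96.0 to 69.8 and 74.6 (−1.17, SE 0.15, limma adjusted p = 0.0184). In the K562 RBFOX2 KD libraries ZNF331 stood at 77.7 and 68.8 and ZNF491 at 30.5 and 16.6, near their Control values. Without K562 WT replicate 1 or 2 a single member was called, and without K562 Control replicate 1 or 2 there were 14 and 20.

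RBFOX2 knockdown was the treatment of the study, which asks whether m6A on caRNA depends on RBFOX2. For this the study compared m6A fold changes between peaks with and without RBFOX2 binding, beside other experiments. The readouts here are presence, ranks and shares within peak lists, without RBFOX2 binding sites, so they do not answer that question directly. Over both lines none of the 4 readouts passed the test. Members with a peak differed by 0.278 points between KD and Control (exact stratified permutation test, adjusted p = 0.783), the mean percentile by 1.84 (adjusted p = 0.333), the coding share by −0.99 points (adjusted p = 0.378) and the promoter share by −0.35 points (raw exact p = 0.0833, adjusted p = 0.333). The first 2 differences were −1.60 points and −0.12 with lists of equal length. The smallest p this design allows is 0.0167.

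In K562 all 4 readouts overlapped between the groups. Members with a peak were 71.2% and 70.0% in KD and 70.8% and 72.9% in Control (exact permutation test, adjusted p = 1), and promoter summits were 2.1% and 2.18% of member peaks in KD and 1.86% and 2.40% in Control (exact permutation test, adjusted p = 1). In NB4 none of the 4 overlapped. Members with a peak were 75.8%, 74.6% and 74.2% in KD and 72.1%, 73.3% and 73.8% in Control, and the mean percentile 52.7, 51.9 and 52.8 in KD and 47.6, 48.5 and 49.9 in Control. The coding share was 49.4%, 48.8% and 50.5% in KD and 54.1%, 52.0% and 51.1% in Control, and the promoter share 0.873%, 1.09% and 0.903% in KD and 1.60%, 1.9% and 1.49% in Control. Each of the 4 gave an exact permutation p = 0.1, the smallest that 3 against 3 allows, and an adjusted p = 0.1. The promoter shares stand for 5, 6 and 5 peaks in KD and 8, 10 and 8 in Control, and with upstream peaks counted the exact permutation p was 0.2. Changes over all protein-coding genes ran the same way in 3 of the 4 readouts: by 1.53 points for genes with a peak beside 1.81 for the members, by −4.53 beside −2.82 points for the coding share, and by −0.88 beside −0.71 points for the promoter share. The mean percentile over all genes changed by −0.20, beside 3.77 for the members, and the difference between members and all genes was not tested. The NB4 KD lists were longer, with 36777 to 39803 peaks against 29609 to 33497, and with lists of equal length the share of members with a peak was lower in KD by 1.11 points. The other 3 readouts kept their direction in NB4 with lists of equal length, though over both lines the difference in mean percentile changed sign, as given above. The part of the GATA1 peak of the NB4 KD libraries in these readouts was not tested.

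**Figure D5:**
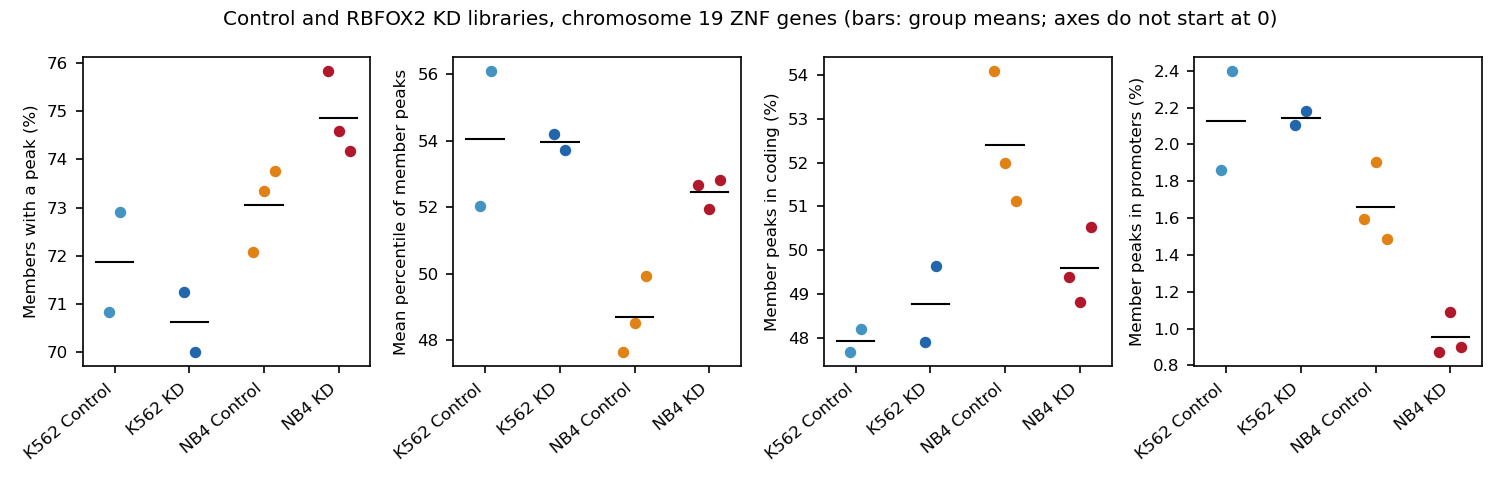
The 4 readouts over the chromosome 19 ZNF genes in the Control and RBFOX2 KD libraries of K562 and NB4; points are libraries and bars group means, and the axes do not start at 0. The K562 groups overlap in every panel and the NB4 groups in none, with NB4 promoter shares of 0.873% to 1.09% in KD and 1.49% to 1.9% in Control.

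The change on KD differed between the lines by −3.06 points for the share of members with a peak (exact stratified permutation test, p = 0.05, adjusted p = 0.0889) and by 3.65 points for the coding share (p = 0.0333, adjusted p = 0.0889), neither past 0.05 after adjustment. Over all protein-coding genes the same differences were −1.98 and 3.45 points. In the same exact test it was −3.87 for the mean percentile (adjusted p = 0.117) and 0.72 points for the promoter share (adjusted p = 0.0889). Without K562 Control replicate 1 the share with a peak differed by −4.1 points and the mean percentile by −5.9, each with an exact adjusted p = 0.0333.

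Few single members were called on knockdown. ZNF154 was the 1 member of 178 (0.562%) with a peak in both K562 RBFOX2 KD libraries and in no K562 Control library, at percentiles 8.18 and 21.5, beside 0.675% of genes. ZNF177 was the 1 with the reverse, at 20.4 and 33.6 in Control, beside 0.931% of genes. In NB4 0 of 186 members were called in either direction, where 0.844% of genes were listed in KD alone and 0.563% in Control alone. So no member was called in the same direction in both lines. By rank, limma called 0 of 163 members in K562, where 0 of 8092 genes passed in either direction (0% called, 217 genes and 1 member at an unadjusted p under 0.05). It called 0 of 164 members in NB4, where 2 of 7282 genes rose (0.0275%) and 0 fell, with 33 members and 1285 genes at an unadjusted p under 0.05. The smallest adjusted p of a member was 0.741 in K562 and 0.0624 in NB4. In simulated data with the replicate spread of the K562 fit, limma recovered 6% of changes of 1 unit and 60% of changes of 2 units. For the NB4 fit these shares were 43% and 96%. The count of 0 in K562 thus does not show that ranks were unchanged, and the lines were not tested equally well. Without NB4 Control replicate 3, 2 members were called in NB4. In NB4 116 of 164 members (70.7%) had a higher score in KD, beside 62.6% of all genes fitted, with a median of 0.21 beside 0.11. In K562 53 of 163 (32.5%) did, beside 42.4% of genes, with a median of −0.09 beside −0.04.

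The corepressors that KRAB zinc finger proteins work with were described by the same rule, over 14 genes. Of these, 9 had a peak in all 14 libraries. TASOR, a subunit of the HUSH complex, led with percentiles of 91.5 to 96.0, followed by MORC2, a HUSH-associated ATPase, with 89.8 to 96.6, and MPHOSPH8, the chromodomain subunit of HUSH, with 77.5 to 96.6. SETDB1, the H3K9 methyltransferase, ranged from 76.0 to 95.2, the chromatin remodeller ATRX from 77.2 to 94.5 and its histone chaperone partner DAXX from 80.6 to 97. TRIM28, itself a gene of chromosome 19, was listed in every K562 library, in 2 of 3 NB4 Control and 3 of 3 NB4 RBFOX2 KD libraries, and in 0 of 2 HepG2 WT libraries. Of the HP1 genes, CBX5 was listed in every K562 and NB4 library and in no HepG2 WT library, and CBX3 in 5 libraries. The other listed genes, ATF7IP, CHD3 and PPHLN1, had a peak in all libraries, and CBX1 and CHD4 in 11.

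Peaks of members on duplicated sequence limit how far a peak can be tied to a gene. Of the member peaks, 18.8% to 25.6% in a library had at least 1 word of 50 bases near the summit that occurs elsewhere, and 0.725% to 2.49% had all such words shared. Over all libraries 16.4% of the 6392 distinct member peaks lay in the window of more than 1 protein-coding gene. On the strand opposite to a member, 44 to 84 peaks were listed per library, of which 24 to 55 lay in no protein-coding gene of that strand.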

How the data were processed

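m6A in caRNA was measured in 14 IP libraries of 3 cell lines. The 14 matching input libraries were not analysed here. The submitters' processing notes name Trimmomatic 0.39 for trimming, HISAT2 2.1.0 for alignment to hg38 and SAMtools 1.9, used to separate the strands. The authors then called peaks with MACS2 on each strand and library, and the deposited lists hold, for each summit, the fold over the local background and −log10 p-values and q-values. Every deposited −log10 q-value is at least 2. Whether the inputs served as background is not given in the sources used here. The fold and the −log10 q-value grow with depth, so ranks within a list were compared.

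Genes came from GENCODE release 44. A summit took the class of the transcript part it fell in, with promoters set around the start of the canonical transcript, and zinc fingers and the KRAB A box core were found in the translated coding sequence. Readouts per library were compared between groups by two-sided exact permutation tests, stratified by line where both lines entered, and sets of genes by an exact sign-flip permutation test over the 6 group means. Values were adjusted by the Benjamini-Hochberg method over the 4 readouts of a contrast, or over the 8 tests between sets. Normal scores of the ranks of all protein-coding genes were fitted with limma 3.58.1 in R 4.3.3, one fit per contrast, on the groups compared. The other steps used Python 3.11.15 with numpy 2.4.6, pandas 2.3.3 and matplotlib 3.10.9, and the tests were checked on simulated data. Precision is set by 2 or 3 libraries a group.

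Named members were the 12 of highest mean percentile among those with a peak in all libraries, the 3 of highest percentile listed in one group only and the 3 with the largest difference past the threshold for each contrast and direction, the 5 longest members without a peak, the 3 with most regions, and up to 6 corepressors. Members printed as sequences, and those listed by cluster, were chosen after their values were seen. The members and lists were chosen with earlier results of these data known. Alternatives were a stricter q-value, lists of equal length, other rules for giving a peak to a gene, leaving out peaks in more than 1 gene or on shared words of 50 bases (counted over 194 hg38 sequences without alternate contigs), the fold in place of the rank, single libraries in place of group means, and leaving out each replicate. No pairing of the samples by replicate number was seen, though so few libraries cannot exclude it. Added after seeing the data were the change on KD between lines under some of these alternatives and a promoter class that includes peaks farther upstream.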

Additional observations from a re-analysis of the deposited data

Results flagged for a closer look

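Over the chromosome 19 ZNF genes, 2 readouts differed between the cell lines in their change on RBFOX2 knockdown. The share of members with a peak changed by −1.25 points in K562 and by 1.81 points in NB4, a difference of −3.06 points between the lines, and every KD library of one line moved in the direction opposite to the other line (exact stratified permutation test, p = 0.05, adjusted p = 0.0889 over 4 readouts). The coding share changed by 0.829 points in K562 and by −2.82 points in NB4, a difference of 3.65 points (exact stratified permutation test, p = 0.0333, adjusted p = 0.0889). Neither passed 0.05 after adjustment. Over all protein-coding genes the difference between the lines was −1.98 points for the share with a peak and 3.45 points for the coding share, so neither is shown to be particular to these genes. The NB4 RBFOX2 KD lists were longer than the NB4 Control lists. With lists of equal length the share with a peak fell on KD in NB4 too, so the opposite directions were not kept. The part of list length in these differences was not tested beyond the lists of equal length described in the next section.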

How the results depend on the processing

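Under settings other than leaving out a replicate, 131 values kept their direction and their side of the threshold, 13 reversed, 11 counts moved by more than 1.5 times and 1 lost its call. With lists cut to equal length, the share of members with a peak changed by −1.60 points on KD over both lines, −1.11 in NB4, and −6.67 between K562 WT and HepG2 WT. The mean percentile changed by −0.120 on KD over both lines, 0.263 between K562 Control and WT and −0.697 against other chromosome 19 genes. The promoter share changed by −0.205 on KD in K562 and 0.0895 between K562 Control and WT, and by −0.334 against ZNF genes of other chromosomes, where the exact test no longer passed. The coding share against those genes was −2.28. Members listed in one group only then numbered 0 for K562 KD and 2 for K562 Control, 1 for NB4 Control, 10 for K562 WT and 22 for HepG2 WT, 9 for K562 Control against NB4, and 3 each for K562 Control and K562 WT. With a −log10 q-value of at least 5, the share with a peak on KD over both lines was −0.0694 points and the percentile difference of K562 WT and HepG2 WT 0.487. With the fold in place of the rank, 42, 21 and 5 members were called in K562 WT against HepG2 WT, NB4 Control against K562 Control and K562 Control against WT. Counting upstream peaks as promoter peaks, chosen after seeing the data, turned the promoter share to 0.148 points between K562 Control and WT and 0.183 against ZNF genes of other chromosomes. The cause of these shifts was not tested.

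Leaving out 1 replicate gave −0.243 to 0.799 for the share with a peak on KD over both lines. For K562 KD it gave −2.13 to 1.94 for the percentile, −0.0407 to 1.70 for the coding share and −0.257 to 0.281 for the promoter share, and for K562 Control against WT −2.23 to 1.83 and −0.444 to 0.0933 for percentile and promoter share. The difference between lines on KD was −4.10 to −2.01 for the share with a peak and −5.90 to −1.84 for the percentile. Both passed the exact permutation test without K562 Control replicate 1 (adjusted p = 0.0333). Members listed in one group only ranged from 1 to 2 for K562 KD, 1 to 5 for K562 Control, 0 to 2 for NB4 KD, 0 to 1 for NB4 Control and 1 to 3 for K562 Control against WT. Members called by rank ranged from 0 to 2 for NB4 KD, 0 to 88 for K562 WT against HepG2 WT, 7 to 47 for NB4 Control against K562 Control and 1 to 20 for K562 Control against WT.

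Same-numbered KD and Control libraries did not deviate together over 5082 genes (r from −0.168 to −0.0233), so no pairing by number was seen. With 2 or 3 libraries a group these r depend on each other, and they cannot show that the samples were handled separately. With the replicate number as a block the percentile changed by 1.84 on KD over both lines, and the replicate block changed no call. Precision is limited by 2 or 3 libraries a group, and a missing peak does not show that m6A was absent.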
